A study of Mus with 4 samples.

Results

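The 10 genes Alb, Afp, Ttr, Trf, Ahsg, Apoa1, Apob, Fga, Fgb and Fgg encode proteins that hepatocytes secrete into the blood plasma, and their scores in a TBX3 ChIP-Seq track of mouse primary hepatocytes were examined to ask whether very active liver genes collect ChIP signal. They were chosen by name, all 10 were found in the RefSeq annotation of GRCm38.p6, and they are 10 of its 21887 protein-coding genes. The series holds 2 TBX3 ChIP libraries, for which chromatin was pulled down with anti-HA, and 2 Input libraries, which are chromatin before immunoprecipitation. All 4 libraries came from primary mouse hepatocytes that carried pT2-SVNeo-EF1-eGFP-P2A-Tbx3-HA, a Sleeping Beauty transposon from which the EF1 promoter drives eGFP and HA-tagged TBX3, so the Input cells carried the transgene too. The cells were grown in expansion medium and selected with G418, so TBX3 was overexpressed in cultured cells. No library from cells without the tagged protein, and none with a control antibody, was analysed here.

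The liver makes most of the protein of the blood plasma, and the genes for its main products are among the most strongly transcribed in adult hepatocytes. Alb encodes albumin, the main plasma protein, and lies in tandem with Afp, which encodes alpha-fetoprotein, made by the fetal liver and largely silent after birth. TTR carries thyroid hormone and, bound to retinol binding protein, retinol. TRF (transferrin) carries iron, AHSG (fetuin-A) binds calcium phosphate, APOA1 is the main protein of high-density lipoprotein and APOB that of very-low-density and low-density lipoprotein. Fga, Fgb and Fgg encode the 3 chains of fibrinogen, the precursor of the fibrin clot, and Fgb is transcribed in the direction opposite to the other pair. DNA of very active genes can be recovered in a ChIP whatever the antibody, and the Input does not always show it, so such genes are a common check of a ChIP track. A ChIP track does not measure transcription, so whether the 10 genes were active in these cultured cells, and whether the cells kept the markers of hepatocytes, was not tested.

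The authors deposited a single track made with MACS2, a program that asks for each base how probable its number of ChIP reads is under a Poisson distribution whose mean, the expected level, comes from the Input. Each value, here the score, is the −log10 of that p-value. No value is given per library, and the sources used here do not say which libraries entered it, so no score carries a replicate error and the intervals given cover counting only. From each score the reads over a base (the pileup) and the expected level were worked back, and a pair that gives the score was found for 99.99% of the 2727620324 bases, and for 98.91% of those scoring 5 or more. The tolerance was 1 unit of the last digit of the score, 5 units from a score of 3 upward and 10 units from a score of 10 upward. The length of a read in the pileup was set to 150 bp and not fitted to the track. At that length the inferred pileup amounts to 30056622 ChIP reads. The lowest expected level, used wherever the Input was not higher, was 2.43 reads. At that level the score moves in steps of 1 read, from 1.00 for 4 reads to 3.02 for 8 reads, 4.31 for 10 reads and 5.75 for 12 reads. Neighbouring values such as 3.02 and 3.65 therefore differ by 1 read. With p-values adjusted over the whole track by the Benjamini-Hochberg method, an adjusted p of 0.05 fell at a score of 5.46. Regions were called as runs with a score of at least 5, with gaps up to 30 bp joined and a length of at least 200 bp, and 125 were found on the main chromosomes. The gene table used here gives no strand, so the ends of a gene are named as its lower-coordinate and higher-coordinate end.

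No region was called at any of the 10 plasma protein genes. The count was 0 of 10 in the gene or within 10 kb of it, where 0.672% of all protein-coding genes had a region, so a share of 0 of 10 lies near that of genes at large. The nearest region lay 1922830 bp from Apoa1 at the closest and 70334083 bp from Apob at the farthest. The highest score over a gene body ran from 1.42 at Apoa1 to 5.75 at Ttr. Its median over the 10 genes was 3.33, and that over all protein-coding genes was 3.02. The highest score was above the all-gene median in 5 of the 10 bodies, against 48.0% of all genes. For scale, E2f7, a gene that the study describes as bound by TBX3, had a highest score of 22.79, at 174 bp above its lower-coordinate end. E2f8 had one of 15.53, outside its higher-coordinate end and so not in its body. Over the body E2f8 had a highest score of 4.31, the same as Afp, Apob and Ahsg.

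**Figure D1:**
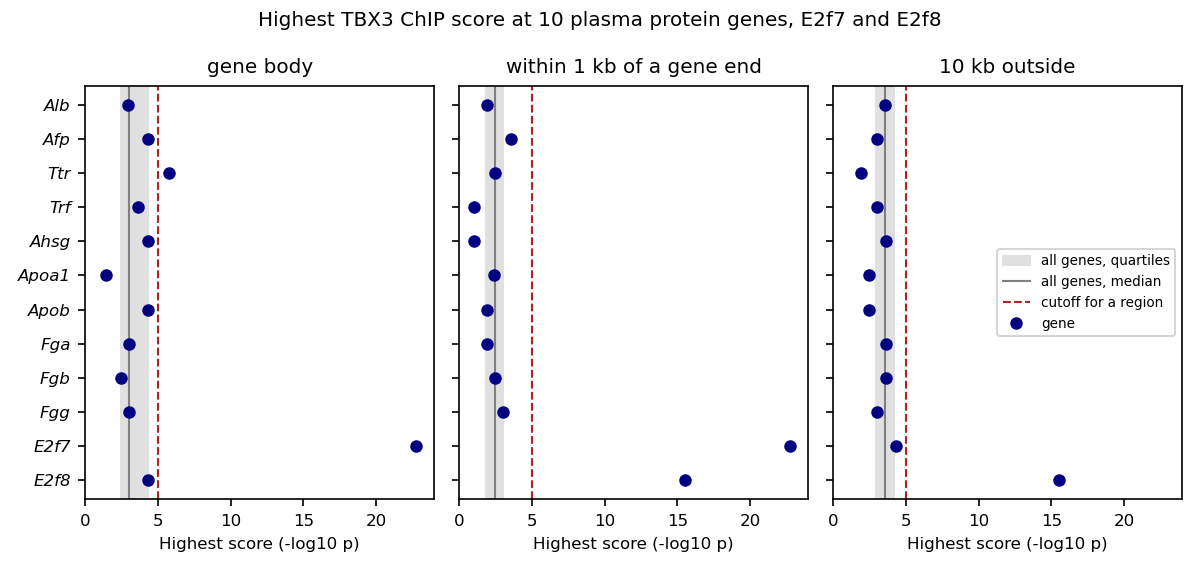
Highest score (−log10 p, horizontal axes) over the gene body, within 1 kb of a gene end and in the 10 kb outside for the 10 plasma protein genes, with E2f7 and E2f8 below them; the grey band marks the quartiles of all 21887 protein-coding genes, the grey line their median and the dashed line the score of 5 used for regions. Ttr at 5.75 in the gene body is the plasma protein gene to the right of the dashed line, and E2f7 reaches 22.79.

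Alb (gene 11657, chromosome 5 of GRCm38 from 90460870 to 90476602) had a highest score of 2.94 over its 15733 bp body, in which no base reached a score of 3. Of all protein-coding genes, 64.2% scored as high (95% Wilson interval 63.6 to 64.9%). The mean score over the body was 0.34, the same to 2 decimals as the all-gene median of 0.34. Within 1 kb of its ends the highest score was 1.90, reached at several places both outside and inside the gene. The highest score of the 10 kb outside was 3.55, over a run of 63 bp that starts at 90453577, from 9 inferred reads, with an adjusted p of 0.207. That level is one that 51.3% of all genes reach in that window. The position of the maximum depends on the window: within 5 kb outside the gene the highest score was 1.90, below that of the Alb body.

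Afp (gene 11576, chromosome 5 from 90490714 to 90508907) scored higher than Alb in the body and at the ends, and lower in the outside window. Its highest body score was 4.31, from 10 reads at 4795 bp above the lower-coordinate end, with an adjusted p of 0.122. That position lay in a 77 bp run, and 2 further runs with a score of at least 3, of 24 and 92 bp, lay between it and the lower-coordinate end. The first of these, 986 bp above the lower-coordinate end and so at the edge of the window, gave Afp a highest score of 3.55 within 1 kb of a gene end, which 16.4% of all genes reached and no other member did. With windows of 500 bp Afp had 2.44, which 32.8% of genes reached, as did Ttr. With windows of 2 kb Afp kept 3.55, which 26.7% of genes reached, and Ttr was higher at 5.75. The mean score over the Afp body was 0.40, a value that 24.4% of genes reached. Alb and Afp are separated by 14111 bp, in which the highest score was 3.02, at a 16 bp run that lies in the outside window of both genes. The 10 kb windows of these neighbours overlap, so their outside values are not independent.

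Ttr (gene 22139, chromosome 18 from 20664209 to 20674326) was the member with a score above 5. The run spans 20665296 to 20665394, inside the gene and 1131 bp above its lower-coordinate end at the top. The top score was 5.75, from 12 reads against 2.43 expected, which is 4.93-fold, with an adjusted p of 0.0307. The track does not show whether the mates of a pair were counted as separate reads. Counting each read pair once was approximated, here and below, by dividing the reads and, for a score, the expected level by 2. With this alternative, added after the data were seen, the score was 3.56 and the adjusted p 1.00. The division lowers any score of that size, so the fall does not show that mates were counted separately. The run at a score of at least 3 is 99 bp long, 35 of its bases reached a score of 5 and 13 reached the adjusted p of 0.05, so it is shorter than 1 read of 150 bp and under the length required for a region. Among the 6847 genes of 0.5 to 2 times the length of Ttr, 184 scored as high, which is 2.69% (95% Wilson interval 2.33 to 3.10%). Of all protein-coding genes 6.41% scored as high. The same run lies within 1 kb of the end of Gm16090, a long noncoding RNA gene annotated from 20597964 to 20665260, so it cannot be given to Ttr alone. Of the 10 bodies, 1 had a base at or above a score of 5, against 13.9% of all protein-coding genes, and 1 had a base at an adjusted p of 0.05 or less, against 7.41%. Both shares are near those of genes at large. Within 1 kb of the ends of Ttr the highest score was 2.44, and in the 10 kb outside it was 1.90, a value that 97.9% of genes reached, the lowest outside score of the 10 genes. Ttr also had the highest mean score over the body, 0.45, which 12.2% of genes reached.

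**Figure D2:**
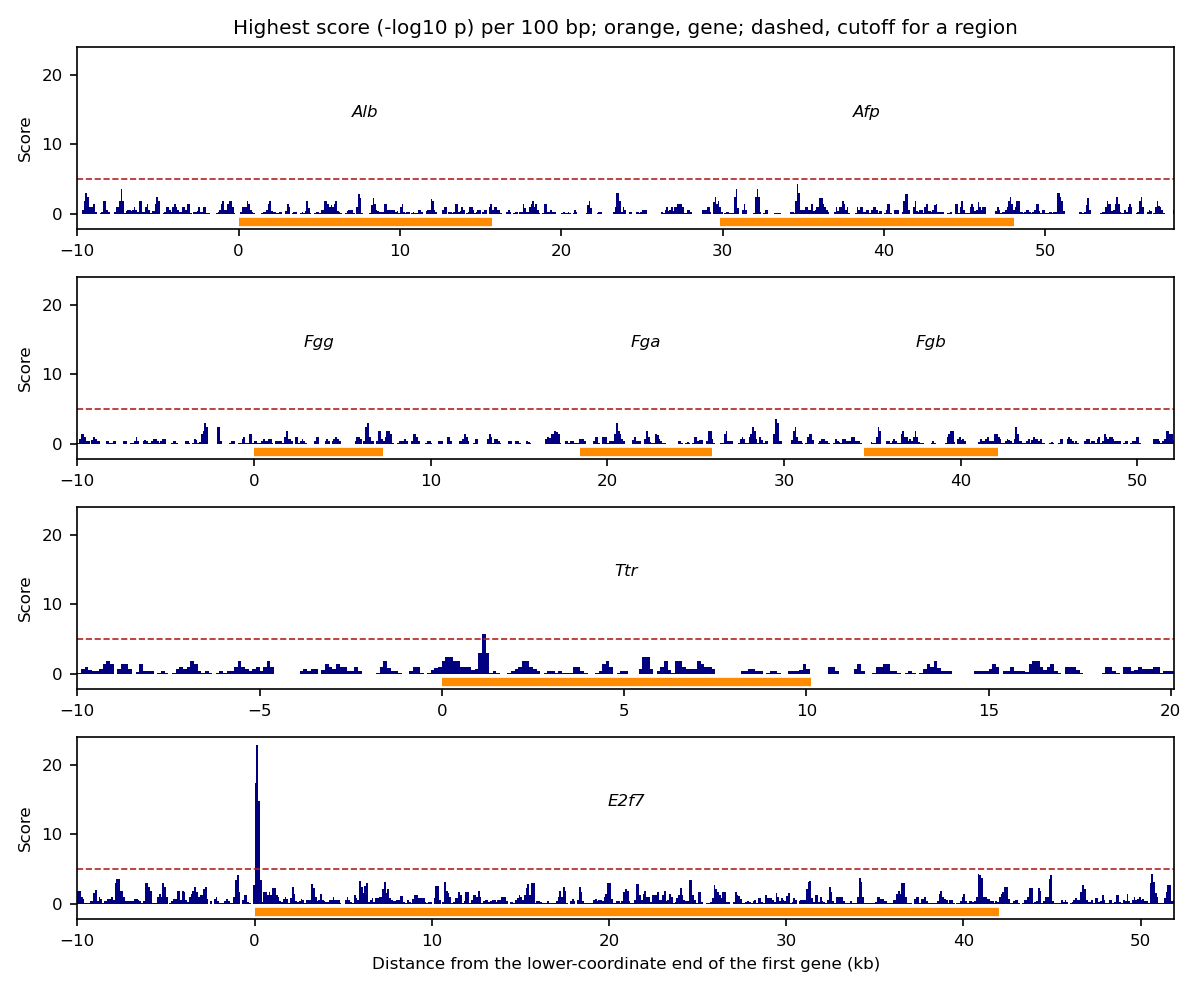
Highest score per 100 bp (−log10 p, vertical axes, the same scale in each panel) along Alb and Afp, the 3 fibrinogen genes, Ttr and E2f7, against the distance in kb from the lower-coordinate end of the first gene; orange bars are genes and the dashed line is a score of 5. The run inside Ttr reaches 5.75, the panels of Alb, Afp and the fibrinogen genes stay under the dashed line, and the run at the end of E2f7 reaches 22.79.

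Trf (gene 22041, chromosome 9 from 103208876 to 103230286) had a highest body score of 3.65, from 9 reads at 6707 bp above its lower-coordinate end. Few reads lay at its ends. No score there exceeded 1.00, the level of 4 reads, which 97.2% of genes reached, and the mean score there was 0.18. Srprb, a neighbour within 10 kb, had a highest score of 0.96 within 1 kb of its own ends. Ahsg (gene 11625, chromosome 16 from 22892015 to 22899451) showed the same contrast in highest score between body and ends. The highest body score of Ahsg was 4.31, at 3766 bp above the lower-coordinate end and with an adjusted p of 0.122, while the highest score within 1 kb of its ends was 1.00. In reads the contrast was smaller, with a mean inferred pileup of 1.15 in the body and 1.03 at the ends, beside 1.43 and 0.868 at Trf. The Input exceeded the lowest expected level over 53.25% of the bases at the ends of Ahsg and 11.5% at those of Trf. Of genes of similar length, 10.5% scored as high in the body (95% Wilson interval 9.76 to 11.3%), and of all protein-coding genes 26.8%. Yet 56.5% of the bases of the Ahsg body carried no ChIP read, the largest such share of the 10 genes, and its mean score of 0.27 was the lowest. Outside the gene a run of 86 bp, at -8180 bp relative to its lower-coordinate end, reached 3.65, inside the long noncoding RNA gene Gm30505.

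Apoa1 (gene 11806, chromosome 9 from 46228630 to 46230469) is the shortest of the 10 genes, with 1840 bp, and had the lowest highest body score, 1.42 from 5 reads. Of genes of similar length 69.5% scored as high. Outside the body, Apoa1 reached 2.37 within 1 kb of an end and 2.44 in the 10 kb outside, where 93.1% of genes scored as high. Its neighbour Apoc3, which encodes an apolipoprotein that slows the clearance of triglyceride-rich lipoproteins, had a highest score of 2.44 within 1 kb of its ends, and the neighbour Sik3, a kinase gene, had 1.42. Apob (gene 238055, chromosome 12 from 7977629 to 8016839) is the longest, with 39211 bp. The 5 runs of Apob with a score of at least 3 ranged from 8040 to 32352 bp above its lower-coordinate end, the highest at 29766 bp with a score of 4.31. Within 1 kb of its ends Apob reached 1.90, and 0.96 at the lower-coordinate end. Over genes of similar length the share that scored as high as Apob in the body was 33.7%.

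The fibrinogen genes lie in a cluster on chromosome 3, Fgg (gene 99571) from 83007724 to 83015056, Fga (gene 14161) from 83026153 to 83033627 and Fgb (gene 110135) from 83042246 to 83049863. They encode the gamma, alpha and beta chain. Their highest body scores were 3.02 at Fgg, 3.02 at Fga and 2.44 at Fgb, a range of 1 read. Near the gene ends Fgg was the highest of the cluster with 3.02, inside the gene at 6400 bp above its lower-coordinate end, followed by Fgb with 2.44 and Fga with 1.90. In the 8618 bp between Fga and Fgb a run of 67 bp reached 3.65, the highest score of the cluster, inside the long noncoding RNA gene Gm40075. This run lies in the outside windows of Fga and Fgb alike and gave both their outside value of 3.65, which 46.6% of genes reached. In the 11096 bp between Fgg and Fga the highest score was 1.90. The neighbour Plrg1, which encodes a splicing factor, had a highest score of 1.84 within 1 kb of its ends.

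By window, the counts of members above the all-gene median lay near or under the shares of all genes. Within 1 kb of a gene end 2 of 10 had a highest score above the all-gene median of 2.44, Afp and Fgg, against 32.8% of all genes, and the median over the 10 genes was 2.14. None of the 10 had a base with a score of 5 there, against 3.60% of genes, and none had a base at an adjusted p of 0.05 or less, against 2.26%. By the mean score within 1 kb of the ends 4 of 10 were above the median, against 50.0%, and the members' median was 0.31 beside 0.33. Over the gene body the mean score was above the median in 4 of 10, against 50.0%, with a median of 0.32 beside 0.34. In the 10 kb outside 3 of 10 had a highest score above the all-gene median of 3.55, against 46.8%, with a median of 3.02. By the mean score 1 of 10, Alb, was above the median in that window, against 50.0%, with a median of 0.28 beside 0.35. None of the 10 reached a score of 5 outside, against 10.3% of genes, and none an adjusted p of 0.05 or less, against 5.38%. The count at the gene ends was 5 of 10 when the expected level was raised on chromosomes deeper than the autosome median. There, 49.4% of all genes were above the all-gene median since fewer tied with it. Scores on less deep chromosomes, such as 2.44 at Ttr, did not change while the all-gene median fell. Against the genes of each member's own chromosome the count at the gene ends was 5 of 10, beside 40.9% of all genes. The count for the mean score over the body was 7 of 10 against genes of the same chromosome, beside 49.4%, and 7 of 10 were above the median by the highest score against genes of similar length, beside 41.2%. With 10 genes and these shifts, neither a low nor a high position of the members follows from the counts.

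**Figure D3:**
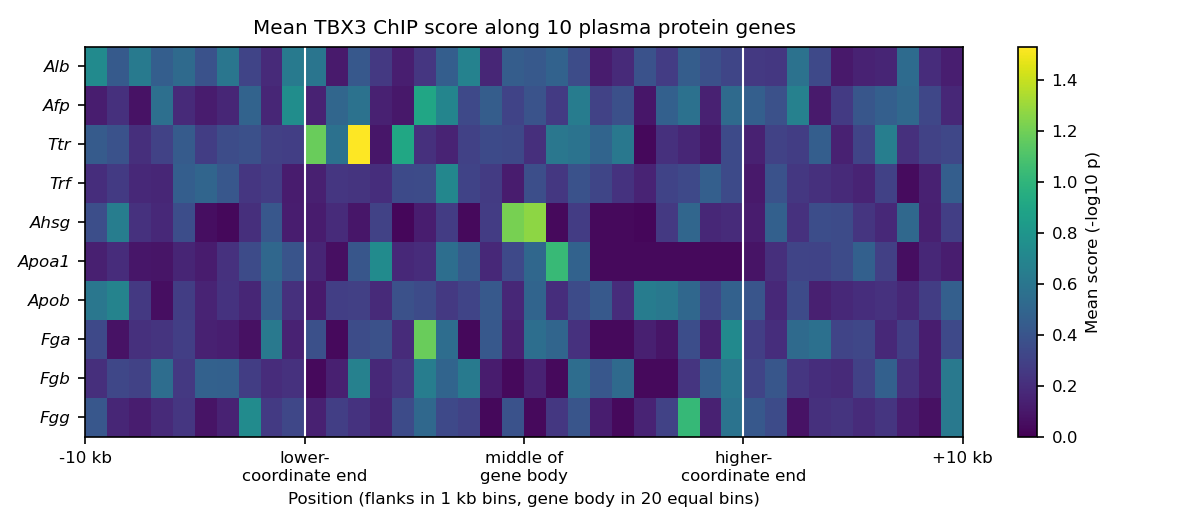
Mean score (−log10 p, colour) along each of the 10 plasma protein genes, with the 10 kb on either side in bins of 1 kb and each gene body in 20 equal bins between the white lines. The brightest bin lies inside Ttr near its lower-coordinate end, Ahsg has a pair of bright bins near the middle of its body, and no column of bins is bright in all 10 genes. Body bins span fewer bases in shorter genes, so brightness is not directly comparable between genes or with the flanks.

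The chromosomes that hold these genes differed in depth. The mean inferred pileup over a chromosome, relative to the median of the autosomes, was 0.738 for chromosome 9 (Apoa1 and Trf), 0.802 for chromosome 3 (fibrinogen), 0.893 for chromosome 12 (Apob), 0.937 for chromosome 16 (Ahsg), 0.958 for chromosome 18 (Ttr) and 1.01 for chromosome 5 (Alb and Afp). On 5 of these 6 chromosomes the depth was under the autosome median. Of the genes given for scale, E2f7 lies on chromosome 10, at 1.40, and E2f8 on chromosome 7, at 0.899. The score does not correct for chromosome depth wherever the expected level is the genome-wide one. The part of chromosome depth in the counts by window was not tested beyond the alternatives given, and whether the depth follows chromosome number in the cultured cells or the sequencing cannot be told apart. Over the gene body 3 of 10 genes had a mean inferred pileup above the all-gene median of 1.69 reads, against 50.0%, and 4 of 10 a ratio of pileup to expected level above the median, against 50.0%. Relative to the mean of their own chromosome 8 of 10 were above the all-gene median of 0.959, against 50.0%, with a median over the 10 genes of 1.05. The lower pair were Fgg at 0.897 and Ahsg at 0.688. Setting a gene against its own chromosome thus turned the count from a minority to a majority of the 10 genes.

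A comparison inside each locus, which no chromosome depth enters, was added after the data were seen. The mean inferred pileup over the gene body was divided by that in the 10 kb outside. Alb had 1.79 reads per base in the body and 1.77 outside, a ratio of 1.01. Afp had 1.92 in the body and 1.60 outside, a ratio of 1.20. The 95% counting intervals of these neighbours, 0.764 to 1.34 for Alb and 0.916 to 1.58 for Afp, overlap, so albumin and its fetal counterpart were not told apart. Ttr had 2.03 reads per base in the body and 1.67 outside, a ratio of 1.22. Trf had 1.43 and 1.17, also a ratio of 1.22. Apoa1 had 1.27 and 1.06, a ratio of 1.20 that rests on 16 reads over the body. Apob, the longest gene and so the one with the most reads over its body, 436, had a ratio of 1.16. Fga, Fgg and Fgb had ratios of 1.20, 1.09 and 1.00. Ahsg, with 1.15 reads per base in the body and 1.33 outside, was the gene with a ratio below 1, at 0.865.

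The ratio was therefore above 1 in 9 of 10 plasma protein genes, against 47.5% of the 21580 protein-coding genes with a value. Among the 9, Alb at 1.0083 and Fgb at 1.0007 were barely above 1. The median of the 10 ratios was 1.18 and that of all genes 0.989. The level outside, by which the ratio divides, was low in the members. The mean inferred pileup outside was above the all-gene median of 1.707 reads in 1 of 10, Alb, with a members' median of 1.384. Over the body 3 of 10 were above the all-gene median. Neither count is corrected for chromosome depth. A ratio above 1 is thus relative to the flanks, and the part of their low level in the ratios was not tested. For none of the 10 genes did the 95% counting interval, taken over reads or over read pairs, leave out 1, so at this depth an excess over the body was not detectable in any single gene. Windows shared between Alb and Afp and among the fibrinogen genes mean that the 10 ratios are not independent, and without replicates no test of the 10 together was made. The share of bases where the Input exceeded the genome-wide level, divided in the same way between body and outside, had a median of 1.00 over the 10 genes beside 0.991 over all genes. Single genes went both ways, from a ratio of 0.233 at Apoa1 to 1.42 at Fga, with 1.38 at Fgb, 1.29 at Trf and 1.26 at Alb. The part of the Input in the ratios was not tested.

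**Figure D4:**
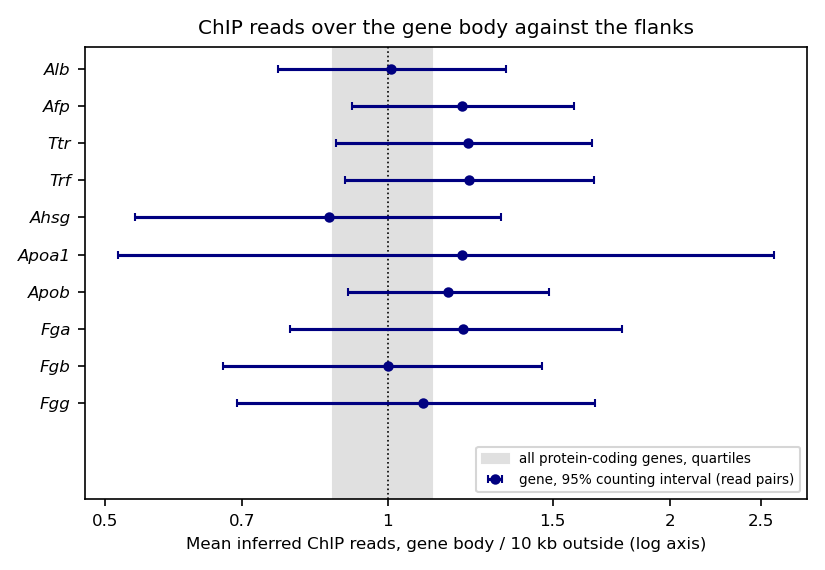
Mean inferred ChIP reads over the gene body divided by those in the 10 kb outside (horizontal log axis) for the 10 plasma protein genes; points are the ratios, bars their 95% counting intervals over read pairs, and the grey band the quartiles of all protein-coding genes. Ratios run from 0.865 at Ahsg to 1.22 at Trf, and each bar crosses 1.

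Comparison lists gave the same measures for other genes, chosen by function. Of 34 other genes for liver plasma proteins, among them Hp (haptoglobin), Hpx (hemopexin), C3 (complement) and Serpinc1 (antithrombin), 10 had a ratio of body to outside above 1, a share of 29.4% with a median of 0.946. The share in this wider group of secreted proteins lay below that of all genes, and that of the 10 members above it. Of 30 housekeeping genes, known as transcribed in nearly every cell type, 19 had a ratio above 1, a share of 63.3% with a median of 1.21. Of 35 genes known for other tissues and chosen as not transcribed in hepatocytes, 15 had a ratio above 1, a share of 42.9% with a median of 0.971. The share of bases with raised Input, divided in the same way between body and outside, had medians of 1.07, 0.848 and 1.02 in these lists, in this order. Its part in the ratios was not tested. For the mean score within 1 kb of the gene ends, 18 of the 34 other plasma protein genes were above the all-gene median, 22 of the 30 housekeeping genes and 12 of the 35 genes of other tissues, with medians of 0.34, 0.46 and 0.28. The 10 members, with 4 of 10 and a median of 0.31, lay between the last and the first of these. In the gene body the mean score was above the all-gene median in 12 of 34 other plasma protein genes and in 24 of 30 housekeeping genes and 15 of 35 genes of other tissues, beside 4 of 10 members. The share of bases within 1 kb of the ends where the Input exceeded the genome-wide level had a median of 22.9% in the members, 34.3% in the other plasma protein genes, 23.0% in the housekeeping genes and 42.1% in the genes of other tissues, beside 30.6% over all genes. The lists rest on general knowledge of these genes, whose activity in these cells was not tested, and no difference between lists was tested.

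**Figure D5:**
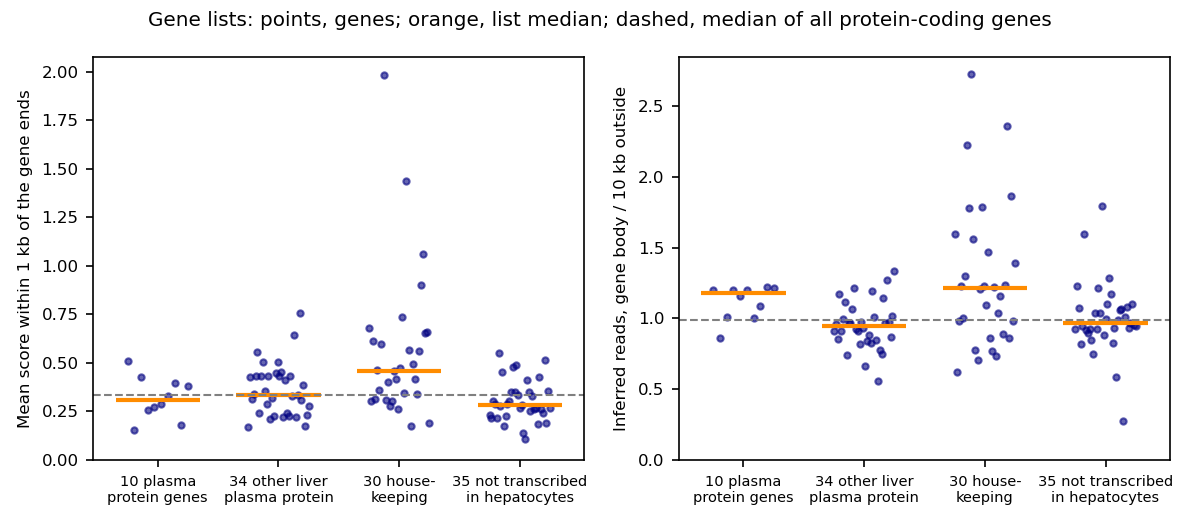
Mean score within 1 kb of the gene ends (−log10 p, left) and ratio of inferred reads over the gene body to the 10 kb outside (right) for the 10 plasma protein genes and 3 comparison lists; points are genes, orange lines list medians and the dashed line the median of all protein-coding genes. Medians on the left are 0.31, 0.34, 0.46 and 0.28, and on the right 1.18, 0.946, 1.21 and 0.971.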

How the data were processed

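Reads were mapped with Bowtie2, sorted with SAMtools and compared with MACS2 by the authors, on the build mm10 per the submitters' processing notes. Versions are not given in the sources used here, nor which of the 2 TBX3 ChIP and 2 Input libraries entered the comparison. The deposited values are −log10 p-values of the ChIP pileup against Input in a single track; 0 other columns of per-sample values were used. Genes came from RefSeq GRCm38.p6. Highest and mean scores were taken over the gene body, within 1 kb of both ends and in the 10 kb outside. Behind each score, a read number and an expected level that yield it under a Poisson distribution were sought along the chromosome, with Input windows of 1000 and 10000 bp. The steps were run on data simulated with the same read length, windows and distribution. Such data cannot show whether these settings hold for the track. Reads behind a mean are its sum over bases divided by the set length of 150 bp, so the counting intervals of the ratios rest on that length. Depth per library is unknown from the track. Ranks are shares with 95% Wilson intervals, and no list was tested. The members and lists were chosen with earlier results of these data known. Named are the 10 members, E2f7 and E2f8, which the study describes as bound, genes within 10 kb of a member, and, of each comparison list, counts, medians and the gene of the highest or lowest value in a window. A few other plasma protein genes (Hp, Hpx, C3 and Serpinc1) are named as examples without values. Of 35 other plasma protein genes 34 were matched. The ratio of body to outside and the comparison within a chromosome were added after the data were seen. A planned search for T-box motifs was not run, because no sequence was used here. Tools were matplotlib 3.10.9, numba 0.67.0, pyarrow 21.0.0, scipy 1.17.1, pandas 2.3.3 and numpy 2.4.6 under Python 3.11.15.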

Additional observations from a re-analysis of the deposited data

How the results depend on the processing

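The count of 0 of 10 genes with a region stayed at 0 under the 4 looser settings, which were a score of 3, a length of 100 bp, gaps of 100 bp and 20 kb on either side. The other 4 (a score of 10, the adjusted p of 0.05, each read pair counted once and the expected level raised to chromosome depth) lower the scores or raise the bar, so their 0 says nothing further. Of 34 alternatives of the counts, 24 stayed within 1.5 times the value given. Among them were all those of the region count, of which 4 could not have moved. The other 10 went past 1.5 times. For the highest score within 1 kb of a gene end (2 of 10 above the median) these were 4 by the mean score (50.0% of all genes above), 4 with all 49943 annotated genes as background (46.7%), 5 with the expected level raised to chromosome depth (49.4%) and 5 against the same chromosome (40.9%), where 32.8% of genes were above in the count given. For the mean score over the body (4 of 10) they were 7 by the highest score against genes of similar length (41.2%) and 7 against the same chromosome (49.4%). For the 10 kb outside (3 of 10) they were 1 by the mean score (50.0%) and 1 with each read pair counted once (32.0%). For the pileup over the expected level (4 of 10) they were 9 with the pileup divided by chromosome depth (50.0%) and 8 against the same chromosome (49.4%). The adjusted p of 0.0307 in Ttr became 1.00 with each read pair counted once by the approximation above, which lowers any score of that size. The ratio of body to outside was above 1 in 9 of 10 with 5 kb and 8 of 10 with 20 kb outside. The share of all protein-coding genes was not computed at these widths, so these counts have no background beside them. Comparisons within a chromosome and these ratios were chosen after the data were seen. Ranks of single genes moved past their counting interval in 131 of 139 alternatives. That interval covers only the counting of a share over 21887 genes, and each alternative changes the window, the quantity or the score. At Alb the same highest score of 1.90 near the ends was reached by 74.5% of genes with windows of 1 kb and 90.0% with 2 kb. The causes of single moves were not tested. No library could be left out, since the track gives none apart. No paired analysis was possible because a paired fit needs values of single libraries. Bodies held 16 to 436 reads, which limits what a ratio of a single gene can show.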

Other observations

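Among the other plasma protein genes, Rbp4, which encodes the retinol binding protein that joins TTR in the plasma, shared the highest body score, 5.75, with F10, which encodes coagulation factor X, the same value as Ttr. The lowest body score of that list was 1.00 at Lrg1. Among the housekeeping genes the highest body score was 7.31, at Tuba1b, and the highest score within 1 kb of an end was 14.54, at Pkm, which encodes a pyruvate kinase. Among the genes of other tissues, the highest body score was 6.51, at both Actn2 and Lor. Each list thus held a gene with a score above 5 in its body, where 13.9% of all protein-coding genes had a base of at least 5. The 5.75 shared by Rbp4, F10 and Ttr is a value that 6.41% of all protein-coding genes reached.

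No region was called at the neighbours within 10 kb of the 10 genes. This is no further result, since the nearest region lay at least 1922830 bp from each of the 10 genes. The highest score of these neighbours within 1 kb of an end was 5.75 at Gm16090, which is the run inside Ttr, followed by 3.65 at Gm40075 between Fga and Fgb. Gm10269, a pseudogene beside Ttr, had 1.00. Gm30611, a long noncoding RNA gene beside Ahsg, had 2.44, and Gm30097, which overlaps Fgg, had 1.42.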
